A study of Homo sapiens with 9 samples.

Results

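The vascular endothelial growth factor (VEGF) ligands, their receptors and the hypoxia-inducible factors were followed in Huh-7 cells as 10 genes chosen by name for their role in the pathway, out of 60664 gene identifiers in the count table. They were the ligands VEGFA, VEGFB, VEGFC and PGF, the receptors KDR and FLT1, the co-receptors NRP1 and NRP2, and the HIF alpha subunits HIF1A and EPAS1. All 10 were found by Ensembl identifier, and 8 of them were among the 17207 genes with enough counts to be tested, while VEGFC and KDR were not.

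Huh-7 is an established human hepatocellular carcinoma (HCC) cell line, and the study compared unedited cells (WT) with cells lacking VTRNA1-1 (vtRNA1-1 KO, called 1-1 KO) or VTRNA1-2 (vtRNA1-2 KO, called 1-2 KO), which encode small noncoding vault RNAs. Each of the 3 lines gave 3 mRNA libraries, made from total RNA of untreated cells kept in DMEM F12 with heat-inactivated serum and antibiotics and harvested at subconfluency, with no hypoxic culture named in the labels. By the study's methods, 1-2 KO is a clone grown from a single WT cell after CRISPR/Cas9 deletion, and the 1-1 KO line was received from the laboratory that also provided WT, so that each genotype stands for 1 line, and the missing vault RNA and any other difference between the lines cannot be told apart. The replicate libraries of a line were described as biological replicates.

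Total counts per library ran from 32384469 to 40760513 for WT, from 40455537 to 41782387 for 1-1 KO and from 39464230 to 41000063 for 1-2 KO. Replicate 1 of 1-2 KO stood apart from the other libraries of its line, since a chi-square test of its counts, divided by the degrees of freedom, gave 15.3 and 16.2 against them, where they gave 2.68 against each other. The WT libraries gave 5.05, 10.4 and 6.42 against each other, and the 1-1 KO libraries 2.08, 2.35 and 3.48. Leaving out replicate 1 of 1-2 KO changed no call of a member. VTRNA1-2 had 0 counts in all 9 libraries, WT included, and VTRNA1-1 had 1 count in 1 WT library, so that these mRNA libraries gave no check of either deletion. VTRNA1-3 had between 0 and 2 counts per library. Hepatocyte markers were present, since none of the 10 was at 3 counts or fewer in any line, and their summed level lay between 15048 and 32145 CPM (read counts scaled to the same library total), led by APOB in WT, ALB in 1-1 KO and AFP in 1-2 KO. Of 10 endothelial markers, 6 were at 3 counts or fewer in all WT libraries, 5 in 1-1 KO and 7 in 1-2 KO.

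VEGF-A is a secreted factor that makes endothelial cells grow and migrate toward its source. It signals through the receptor tyrosine kinase KDR (VEGFR-2), while FLT1 (VEGFR-1) binds VEGF-A tightly and also binds VEGF-B and placental growth factor (PGF), and the neuropilins NRP1 and NRP2 hold the ligands near these receptors. Cells short of oxygen stabilise the HIF alpha proteins, which pair with ARNT, bind a short core motif near their target genes and raise VEGFA transcription, so that tumor cells such as HCC cells are a known source of VEGF-A. The stability of the HIF alpha subunits is set mainly at the protein level, which transcript counts do not measure.

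The HIF core motif was looked for in the 250 bases before the RefSeq transcription start (GRCh38.p14) of the members. It was searched as ACGTG and as GCGTG, on both strands, and the pair differ only in their first letter, so that a window is counted once under either. RefSeq windows were at hand for 8 members, in 10 windows, and VEGFA and NRP1 had no entry. GCGTG was present in 6 of the 10 windows (60%) and ACGTG in 0. Among all 35116 RefSeq windows of the same length, 32.2% held GCGTG, 18.5% held ACGTG and 43.2% held either. Of 44 windows of genes known to be induced by HIF in hypoxia, 86.4% held either. The 4 windows below, all with a match, lead 2 members with higher levels in 1-2 KO (VEGFB and FLT1) and the HIF subunits themselves. The window of NRP2, which was also higher in 1-2 KO, held 0 matches and is not shown. A further window of HIF1A (chr14:61697462-61697711) held 0 matches as well. In the windows shown, capitals mark the match (GCGTG, or CACGC where it was read on the other strand). The windows shown are VEGFB (chr11:64234334-64234583, plus strand), FLT1 (chr13:28495129-28495378, minus strand), HIF1A (chr14:61695263-61695512, plus strand) and EPAS1 (chr2:46297157-46297406, plus strand), each written 5′ to 3′ on the strand of its gene.
VEGFB: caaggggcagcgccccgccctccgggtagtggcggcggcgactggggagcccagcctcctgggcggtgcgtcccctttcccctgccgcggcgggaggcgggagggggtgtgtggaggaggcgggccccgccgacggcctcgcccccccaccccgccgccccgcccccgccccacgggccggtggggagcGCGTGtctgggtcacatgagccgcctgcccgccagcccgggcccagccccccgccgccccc
FLT1: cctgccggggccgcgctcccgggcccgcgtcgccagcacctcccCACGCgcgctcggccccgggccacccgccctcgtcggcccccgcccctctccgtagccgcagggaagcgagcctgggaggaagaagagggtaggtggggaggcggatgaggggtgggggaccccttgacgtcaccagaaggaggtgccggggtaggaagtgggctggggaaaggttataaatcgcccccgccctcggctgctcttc
HIF1A: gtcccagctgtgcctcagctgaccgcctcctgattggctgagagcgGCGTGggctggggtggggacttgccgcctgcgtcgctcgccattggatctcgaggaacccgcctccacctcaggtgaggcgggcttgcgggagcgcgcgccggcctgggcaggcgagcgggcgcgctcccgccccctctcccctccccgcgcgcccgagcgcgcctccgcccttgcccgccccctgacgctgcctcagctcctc
EPAS1: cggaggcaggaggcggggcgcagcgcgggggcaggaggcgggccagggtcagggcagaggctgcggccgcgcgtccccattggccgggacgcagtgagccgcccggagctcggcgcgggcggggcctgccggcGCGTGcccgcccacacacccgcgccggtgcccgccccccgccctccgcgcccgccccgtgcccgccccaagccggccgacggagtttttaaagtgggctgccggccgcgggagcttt

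The first base of the match was at position -61 in VEGFB, -206 in FLT1, -204 in HIF1A and -117 in EPAS1, counted back from the start. GC bases made up 82.8%, 73.2%, 75.6% and 80.8% of these windows, in the same order. The EPAS1 window lay inside the longer gene that GENCODE 44 annotates. A match to 5 letters describes the window and does not show binding.

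The members fell into 3 kinds by level. HIF1A, EPAS1 and NRP1 were abundant, VEGFA, NRP2, PGF and VEGFB were at lower levels, and FLT1, VEGFC and KDR were at or close to 0. Levels below are CPM after scaling by trimmed mean of M-values (TMM), and fold changes are log2 values with their standard error (SE) from edgeR's quasi-likelihood test, with adjusted p-values (Benjamini-Hochberg) over all tested genes and a threshold of 0.05. In 1-1 KO compared to WT, 5 of the 8 tested members were higher and 1 was lower, beside 63.4% of all tested genes called (32.5% higher and 30.9% lower). In 1-2 KO compared to WT, 3 were higher and 4 lower, beside 54.4% called (28.2% higher and 26.2% lower). In 1-2 KO compared to 1-1 KO, 3 were higher and 4 lower, beside 65.3% called (33.1% higher and 32.2% lower). The libraries of the 2 lines did not overlap for 6, 7 and 8 of the tested members in the 3 comparisons, in the same order, beside 68.9%, 58.4% and 69.8% of all tested genes. Called changes of over 1 on the log2 scale were made for 0, 2 and 2 members, beside 13.4%, 11.7% and 14.1% of all tested genes. With calls this frequent across the transcriptome, the number of members called says little about them, and their sizes and directions are given gene by gene. Both knockouts were compared with the same WT libraries, and the comparison between the knockouts uses the same knockout libraries again, so that the 3 comparisons are not independent.

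The median log2 fold change of the 8 tested members was 0.38 in 1-1 KO compared to WT, beside 0.01 for all tested genes. It was -0.14 in 1-2 KO compared to WT, beside 0.02, and -0.19 in 1-2 KO compared to 1-1 KO, beside 0.01. Regardless of sign, the median change was 0.38, 0.68 and 0.38, beside 0.35, 0.27 and 0.37 for all tested genes. FLT1 was tested through its 1-2 KO counts alone, and it is among the members counted as higher, as not overlapping and as changed by over 1 in both comparisons of 1-2 KO. FLT1 also enters the medians of all 3 comparisons. Without it, the member in the middle was VEGFA in 1-1 KO (0.28) and HIF1A in 1-2 KO (-0.25), compared to WT. Between the knockouts it was VEGFA (-0.31).

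**Figure D1:**
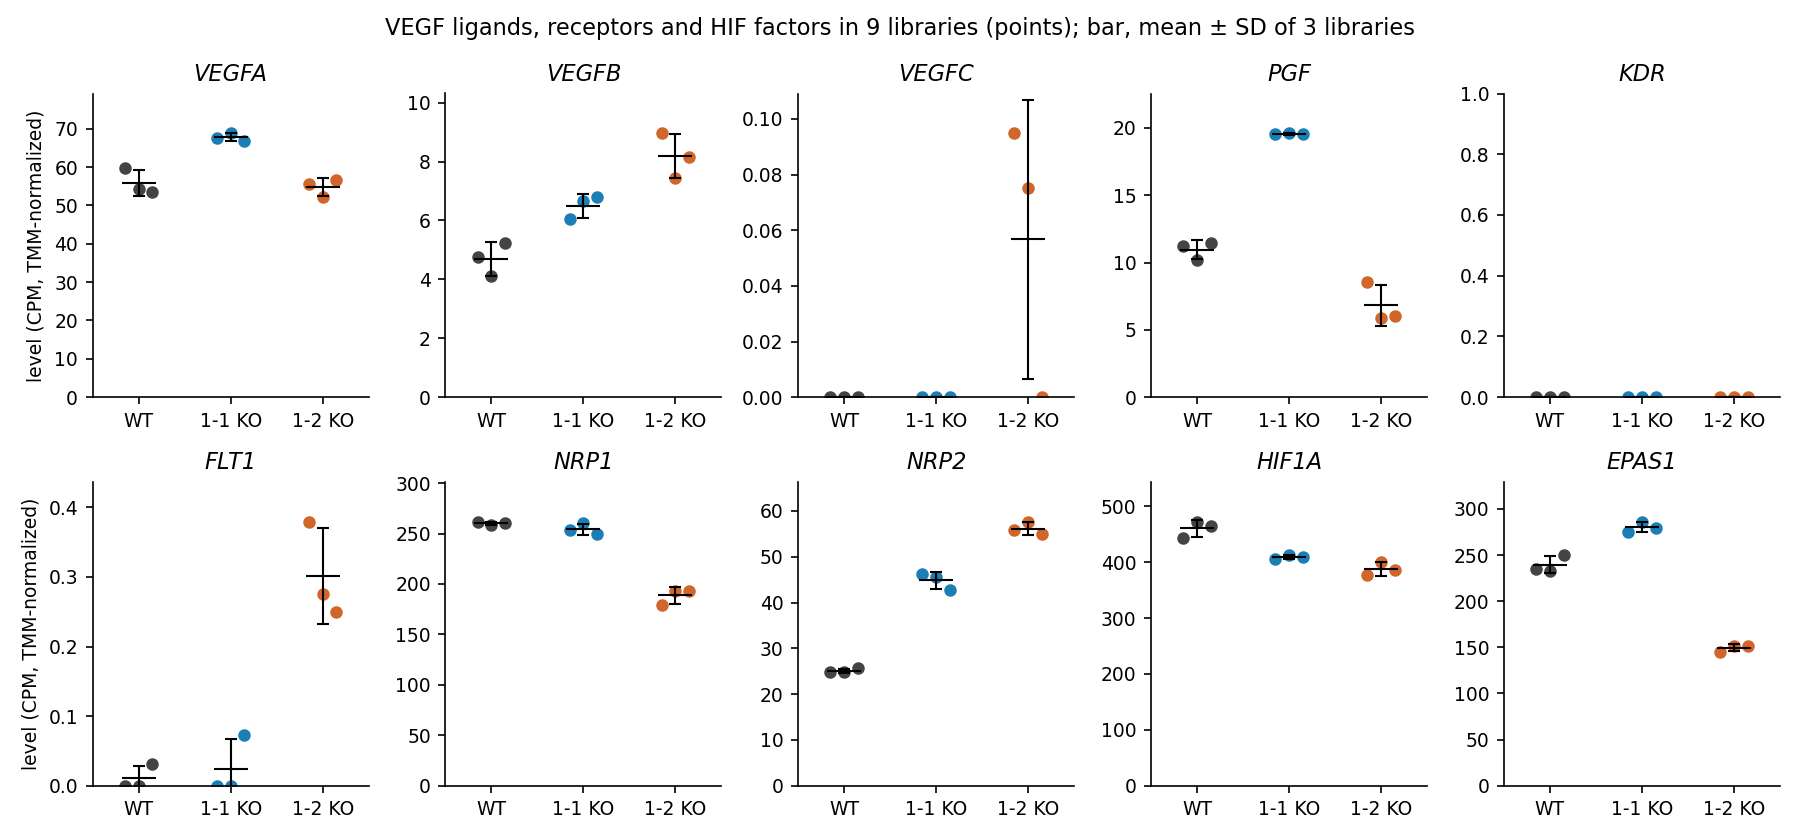
Level of each of the 10 genes (vertical axis, TMM-normalized CPM, from 0 and scaled per panel) in the 9 libraries, with points for libraries and bars for the mean ± SD of the 3 libraries per line. EPAS1 and PGF were highest in 1-1 KO and lowest in 1-2 KO, NRP2 and VEGFB were lowest in WT and highest in 1-2 KO, and KDR was at 0 throughout.

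Of the ligands, PGF and VEGFA were upregulated in 1-1 KO, PGF was downregulated in 1-2 KO, VEGFB was upregulated in both knockouts, and VEGFC was near 0. VEGFA (ENSG00000112715, chr6:43770184-43786487, GRCh38, plus strand), the main VEGF receptor ligand, was at 59.7, 54.2 and 53.6 CPM in the WT libraries, at 67.5, 68.8 and 66.8 CPM in 1-1 KO and at 55.5, 52.2 and 56.6 CPM in 1-2 KO. All 1-1 KO libraries were above all others, and the WT and 1-2 KO libraries overlapped. The mean rose from 55.9 ± 3.38 CPM (SD, n = 3) in WT to 67.7 ± 1.03 CPM (SD, n = 3) in 1-1 KO, a 1.21-fold difference (log2 0.28, SE 0.05, edgeR adjusted p = 0.000135). In 1-2 KO the mean was 54.7 ± 2.28 CPM (SD, n = 3), and the difference from WT did not pass the test (log2 -0.03, SE 0.05, edgeR adjusted p = 0.624), with a 95% interval of the ratio to WT from 0.913 to 1.05. The level in 1-2 KO was 0.808 times that in 1-1 KO (log2 -0.31, SE 0.05, edgeR adjusted p = 4.71e-05).

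VEGFA's neighbours on chromosome 6 moved too. Among its 50 nearest tested genes, 30 were lower and 7 higher in 1-2 KO compared to WT, with a median log2 fold change of -0.27, and the 952 tested genes of the chromosome had the same median to 2 decimals. Taken relative to the neighbours' median, VEGFA was higher in 1-2 KO than in WT (log2 0.24, edgeR adjusted p = 0.000794), and its difference between 1-2 KO and 1-1 KO changed sign (log2 0.10, edgeR adjusted p = 0.0909). These tests took the median as a fixed value and left out the spread among the neighbours. Set among its 50 neighbours by log2 fold change in 1-2 KO compared to WT, VEGFA was number 39 from the lowest. The direction of VEGFA in 1-2 KO thus depends on whether it is read as a level or against its surroundings, while in 1-1 KO the neighbours had a median of 0.04 and VEGFA was higher on either reading. The cause of the shift along the chromosome was not tested.

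VEGFB (ENSG00000173511, chr11:64234584-64239264, plus strand), which binds FLT1 but not KDR, was at 4.75, 4.10 and 5.23 CPM in WT, at 6.05, 6.66 and 6.81 CPM in 1-1 KO and at 8.97, 7.45 and 8.15 CPM in 1-2 KO. The 3 lines did not overlap, with WT lowest and 1-2 KO highest. Compared to WT, VEGFB was 1.39-fold higher in 1-1 KO (log2 0.47, SE 0.11, edgeR adjusted p = 0.00134) and 1.75-fold higher in 1-2 KO (log2 0.81, SE 0.10, edgeR adjusted p = 1.41e-05). Its difference between the knockouts was 1.26-fold (log2 0.33, SE 0.10, edgeR adjusted p = 0.00895), and without replicate 1 of 1-1 KO it no longer passed (log2 0.28, edgeR adjusted p = 0.0504). Its neighbours had medians between -0.05 and 0.10 in the 3 comparisons.

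PGF (ENSG00000119630, chr14:74941834-74955626, minus strand), a ligand of FLT1 and the neuropilins, moved most among the ligands. It was at 11.2, 10.2 and 11.5 CPM in WT, at 19.5, 19.6 and 19.5 CPM in 1-1 KO and at 8.54, 5.87 and 6.03 CPM in 1-2 KO. No library of a line overlapped with those of another, and replicate 1 was the highest in 1-2 KO. PGF was 1.79-fold higher in 1-1 KO than in WT (log2 0.84, SE 0.11, edgeR adjusted p = 9.26e-06) and was at 0.624 of WT in 1-2 KO (log2 -0.68, SE 0.12, edgeR adjusted p = 0.00018). The difference between the knockouts was 2.86-fold, with 1-1 KO higher (log2 of 1-2 KO over 1-1 KO -1.52, SE 0.11, edgeR adjusted p = 2.48e-08). Its neighbours had medians of 0.19 in 1-1 KO and 0.09 in 1-2 KO compared to WT. The calls of PGF in opposite directions compared to WT put it among 2012 genes with that pattern, 11.7% of those tested.

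VEGFC (ENSG00000150630, chr4:176683538-176792922, minus strand), a ligand of the lymphatic receptor FLT4, had 0 counts in all WT and 1-1 KO libraries and 4, 3 and 0 counts in 1-2 KO. A count of 0 allows up to 3 counts per library, or between 0.0708 and 0.0951 CPM at these depths, so that VEGFC was not detectable in WT and 1-1 KO and was at this limit in 1-2 KO. Such limits cover counting error only.

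Of the receptor tyrosine kinases, KDR (ENSG00000128052, chr4:55078481-55125595, minus strand) had 0 counts in all 9 libraries and FLT1 was detected in 1-2 KO. FLT1 (ENSG00000102755, chr13:28300346-28495145, minus strand) had 0, 0 and 1 counts in WT, 0, 0 and 3 counts in 1-1 KO and 16, 11 and 10 counts in 1-2 KO. All 1-2 KO libraries were above the others, and WT and 1-1 KO overlapped at or under 3 counts. The 37 counts of 1-2 KO against 1 in WT gave a ratio of 33.0 relative to the TMM-scaled library totals, with an exact 95% interval from 5.57 to 1338. Against 3 counts in 1-1 KO the ratio was 12.6 (3.98 to 63.7). These intervals cover counting error only. Because FLT1 passed the filter on low counts only through the line where it is high, its calls in 1-2 KO are no independent support, and it is described by its counts. In 1-2 KO its level was between 0.249 and 0.380 CPM.

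The summed level of the 10 endothelial markers was lowest in 1-2 KO, at 2.51 to 3.49 CPM, beside 10.3 to 10.6 CPM in WT and 7.86 to 8.70 CPM in 1-1 KO. The highest of them in WT, PECAM1, was at 7.56 ± 0.308 CPM (SD, n = 3) in WT and at 0.838 ± 0.136 CPM (SD, n = 3) in 1-2 KO, where ESAM was the highest (1.95 CPM). TIE1 and TEK, receptors that define endothelium, were at 0 to 1 counts per library in WT and 1-1 KO and at 0 in 1-2 KO, and CDH5 had 1 to 2 counts in WT, 0 in 1-1 KO and 3 to 7 in 1-2 KO. All libraries came from cultures of Huh-7 cells, and the source of the FLT1 counts within them was not tested.

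Markers of other cell types had no common direction. The summed level of 8 stromal markers was 193 to 205 CPM in WT, 302 to 316 CPM in 1-1 KO and 127.5 to 137 CPM in 1-2 KO, and it followed LUM, which was at 157, 206 and 62.1 CPM. Other stromal markers had higher means in 1-2 KO than in WT, among them COL1A2 (38.4 and 19.5 CPM), PDGFRB (6.53 and 1.77 CPM) and ACTA2 (6.25 and 2.78 CPM). The sum of 8 immune markers was 115 CPM in WT, 102 to 108 CPM in 1-1 KO and 21.6 to 22.6 CPM in 1-2 KO, and nearly all of it in WT was LYZ (113 CPM, beside 19.2 CPM in 1-2 KO). PTPRC, the common leukocyte antigen, had a higher mean in 1-2 KO (0.997 CPM) than in WT (0.153 CPM). These are levels in cultures of Huh-7 cells, where the listed genes do not stand for cells of other kinds. In bulk RNA, fewer Huh-7 cells that express a gene and less RNA per cell cannot be told apart.

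The co-receptors moved differently from each other. NRP1 (ENSG00000099250, chr10:33177492-33336262, minus strand), which binds the main VEGF-A isoforms, was at 261.8, 258.9 and 260.2 CPM in WT, at 253.6, 260.2 and 249.3 CPM in 1-1 KO and at 179, 193 and 193 CPM in 1-2 KO. WT and 1-1 KO overlapped, and all 1-2 KO libraries were below them. NRP1 was at 0.725 of WT in 1-2 KO (log2 -0.46, SE 0.04, edgeR adjusted p = 1.06e-07) and at 0.742 of 1-1 KO (log2 -0.43, SE 0.04, edgeR adjusted p = 1.36e-07). Between 1-1 KO and WT it did not pass the test (log2 -0.03, SE 0.04, edgeR adjusted p = 0.449), with a 95% interval of the ratio from 0.925 to 1.03. Its 50 neighbours on chromosome 10 had a median of -0.15 in 1-1 KO and -0.23 in 1-2 KO compared to WT. Relative to these medians, again taken as fixed, NRP1 was higher in 1-1 KO (log2 0.12, edgeR adjusted p = 0.0123) and remained lower in 1-2 KO (log2 -0.23). Set among its neighbours, NRP1 was number 33 from the lowest in 1-1 KO and number 15 in 1-2 KO.

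NRP2 (ENSG00000118257, chr2:205681990-205798133, plus strand), the neuropilin known from lymphatic vessels, was at 24.9, 24.8 and 25.6 CPM in WT, at 46.2, 45.7 and 42.8 CPM in 1-1 KO and at 55.8, 57.7 and 54.9 CPM in 1-2 KO. The 3 lines did not overlap. Compared to WT it was 1.79-fold higher in 1-1 KO (log2 0.84, SE 0.05, edgeR adjusted p = 1.41e-09) and 2.24-fold higher in 1-2 KO (log2 1.16, SE 0.05, edgeR adjusted p = 5.53e-11). The level in 1-2 KO was 1.25-fold that in 1-1 KO (log2 0.32, SE 0.04, edgeR adjusted p = 1.27e-05). In 1-1 KO the region around NRP2 was higher as well, with 37 of its 50 neighbours higher and 3 lower than in WT and a median of 0.54, and NRP2 exceeded it by 0.30 on the log2 scale. In 1-2 KO the neighbours had a median of 0.11.

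**Figure D2:**
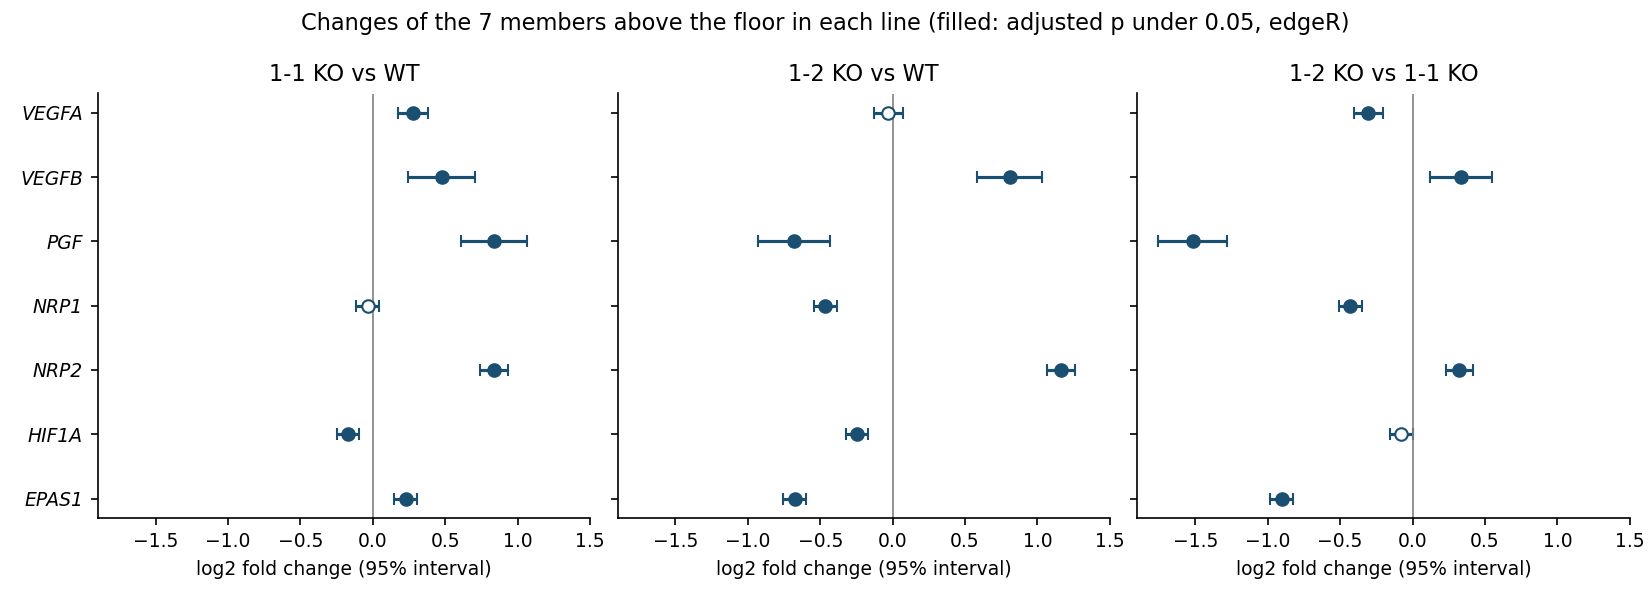
Log2 fold change (horizontal axis) with its 95% interval for the 7 members above 3 counts in every line, in the 3 comparisons, with filled points for an adjusted p under 0.05 in edgeR. VEGFA in 1-2 KO (-0.03), NRP1 in 1-1 KO (-0.03) and HIF1A between the knockouts (-0.08) are the open points, and PGF and EPAS1 lie to the right of 0 in 1-1 KO and to the left in 1-2 KO.

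Compared to WT, the HIF subunits went in opposite directions in 1-1 KO and were both lower in 1-2 KO. HIF1A (ENSG00000100644, chr14:61695513-61748259, plus strand), the alpha subunit of HIF-1 found in most tissues, was at 444, 473 and 465 CPM in WT, at 406, 413 and 409 CPM in 1-1 KO and at 377, 401 and 385 CPM in 1-2 KO. Every knockout library was below every WT library. HIF1A was at 0.889 of WT in 1-1 KO (log2 -0.17, SE 0.04, edgeR adjusted p = 0.000877) and at 0.842 of WT in 1-2 KO (log2 -0.25, SE 0.04, edgeR adjusted p = 4.49e-05). The knockout libraries did not overlap with each other either, but the difference did not pass the test (log2 -0.08, SE 0.04, edgeR adjusted p = 0.0748). It passed without replicate 3 of WT (log2 -0.10, edgeR adjusted p = 0.0204) and without replicate 2 of 1-2 KO (log2 -0.10). In 1-1 KO its neighbours on chromosome 14 were higher than in WT (median 0.22), and in 1-2 KO they had a median of -0.02.

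EPAS1 (ENSG00000116016, chr2:46293667-46386697, plus strand), which encodes HIF-2 alpha, was at 235, 233 and 249.96 CPM in WT, at 275, 286 and 279.7 CPM in 1-1 KO and at 145, 152 and 152 CPM in 1-2 KO. The 3 lines did not overlap. EPAS1 was 1.17-fold higher in 1-1 KO than in WT (log2 0.23, SE 0.04, edgeR adjusted p = 9.30e-05) and at 0.626 of WT in 1-2 KO (log2 -0.68, SE 0.04, edgeR adjusted p = 2.47e-09). Between the knockouts the difference was 1.87-fold, with 1-1 KO higher (log2 of 1-2 KO over 1-1 KO -0.90, SE 0.04, edgeR adjusted p = 6.59e-11). Its 50 neighbours had medians between -0.04 and 0.04 in the 3 comparisons, so that EPAS1 moved while the genes around it did not move on balance.

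**Figure D3:**
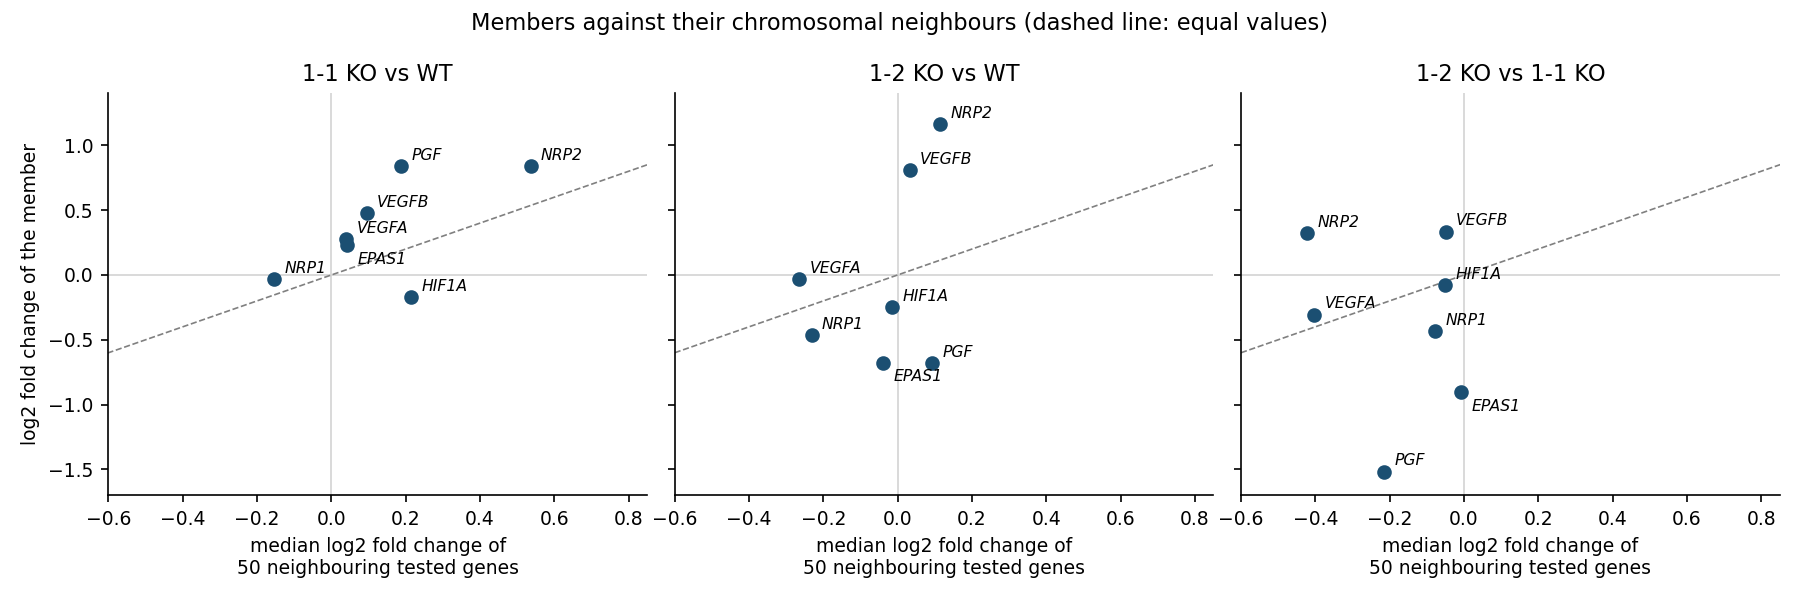
Log2 fold change of 7 members (vertical axis) against the median log2 fold change of the 50 nearest tested genes on the chromosome (horizontal axis) in each comparison, with a dashed line where both are equal. NRP2 lies far to the right in 1-1 KO (0.54) and VEGFA to the left in 1-2 KO (-0.27), while EPAS1 lies near 0 on the horizontal axis in all 3 panels.

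Because levels of different genes can be compared only per length, CPM were divided by the length of each gene's MANE Select transcript, in kilobases. On this scale HIF1A was highest in every line, at 117 CPM per kilobase in WT, 103.7 in 1-1 KO and 98.3 in 1-2 KO. EPAS1 and NRP1 followed and overlapped in WT (46.4 and 46.2 CPM per kilobase). They separated in the knockouts, with EPAS1 above NRP1 in 1-1 KO (54.4 and 45.1) and NRP1 above EPAS1 in 1-2 KO (33.4 and 29.0 CPM per kilobase). VEGFA came next in each line, at 15.5, 18.8 and 15.2 CPM per kilobase. Below it, the order in WT was PGF (6.29), NRP2 (3.78) and VEGFB (2.60 CPM per kilobase), while in 1-2 KO it was NRP2 (8.45), VEGFB (4.54) and PGF (3.92 CPM per kilobase), of which VEGFB and PGF overlapped. The order depends on the length used. With the length of all annotated exons in place of the MANE Select transcript, the order below VEGFA in WT was VEGFB (2.38), PGF (1.89) and NRP2 (1.81 CPM per kilobase), of which PGF and NRP2 overlapped, and in 1-1 KO these 3 members overlapped in turn. EPAS1 then stood above NRP1 in 1-2 KO as well, and VEGFA, whose annotated exons span 14431 nt beside 3609 nt of the MANE Select transcript, fell below VEGFB and NRP2 there.

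Ratios of members within a library do not depend on depth or scaling. The ratio of EPAS1 to HIF1A per kilobase was 0.378 to 0.412 in the WT libraries, 0.519 to 0.530 in 1-1 KO and 0.290 to 0.302 in 1-2 KO. The ratio of NRP2 to NRP1 was 0.0806 to 0.0836 in WT, 0.146 to 0.155 in 1-1 KO and 0.241 to 0.264 in 1-2 KO. For PGF to VEGFA the values were 0.388 to 0.444, 0.591 to 0.607 and 0.221 to 0.319. The lines did not overlap in these 3 ratios. VEGFB to VEGFA overlapped between WT (0.151 to 0.195) and 1-1 KO (0.179 to 0.204) and was higher in 1-2 KO (0.285 to 0.323). The composition of the ligands, of the neuropilins and of the HIF subunits thus differed between the lines, apart from VEGFB to VEGFA between WT and 1-1 KO.

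**Figure D4:**
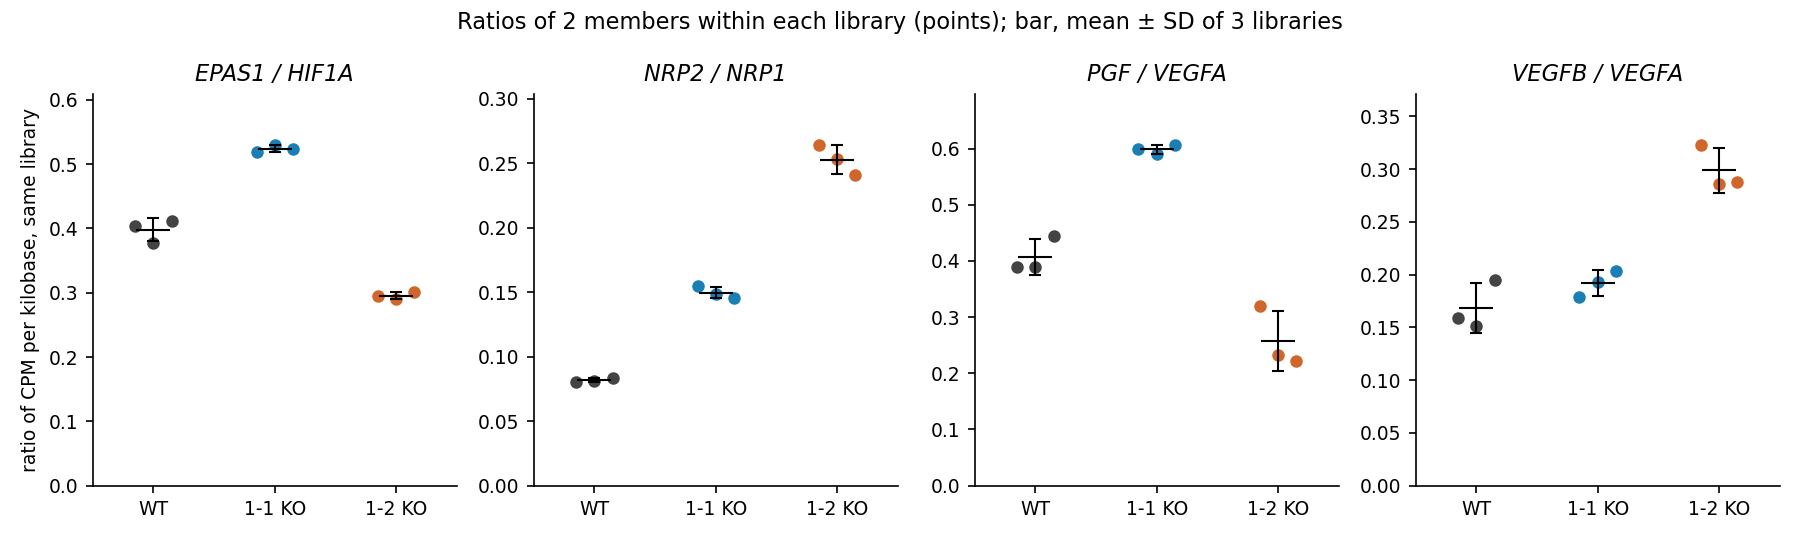
Ratio of CPM per kilobase of a pair of members in the same library (vertical axis, from 0) for the 9 libraries, with bars for the mean ± SD of 3 libraries per line. EPAS1 over HIF1A and PGF over VEGFA peak in 1-1 KO, and NRP2 over NRP1 rises from a mean of 0.0819 in WT to 0.253 in 1-2 KO.

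The genes whose profiles over the 9 libraries were most like each member's were sought among the 13349 others whose level averaged 1 CPM or more, by the root mean square difference of log2(CPM + 1) after centring each gene on its mean. For EPAS1 they were MARVELD2 (0.0352) and NRAS (0.0520), for NRP1 they were TXLNA (0.0124) and HIF1AN (0.0156), and for PGF they were ANG (0.0856) and GLYATL1 (0.123). HIF1AN, which encodes the asparaginyl hydroxylase that inhibits HIF alpha, lies on chromosome 10 as NRP1 does. ANG, an angiogenic ribonuclease, lies on chromosome 14 as PGF does, and it was 1.82-fold higher in 1-1 KO and at 0.478 of WT in 1-2 KO. The closest profiles were JADE2 (0.0356) and NAGLU (0.0377) for VEGFA, FZD1 (0.0650) and OBSL1 (0.0737) for VEGFB, PODXL (0.0645) and RELN (0.0653) for NRP2, and EMG1 (0.0213) and SLC16A1 (0.0222) for HIF1A. These values describe 9 libraries in 3 lines and were not tested.

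The rest of the VEGF and HIF system was described with lists of genes written from general knowledge, with earlier results of these data known. The lists are described by counts and medians beside those of all tested genes, of which 63.4% were called in 1-1 KO and 54.4% in 1-2 KO compared to WT, at medians of 0.01 and 0.02. A list of 8 genes held the ligand VEGFD, the receptor FLT4, and PLXNA1, PLXNA2, PLXNA3, PLXND1, SDC2 and CALCRL (the VEGFD and plexin list). Of these, 7 were tested, and FLT4 was not. In 1-1 KO compared to WT 2 were higher and 2 lower, and in 1-2 KO 1 was higher and 2 lower, which is 57.1% and 42.9% called. VEGFD did not pass in 1-1 KO (edgeR adjusted p = 0.0585) or in 1-2 KO (edgeR adjusted p = 0.350). None of these calls was thus of a VEGF ligand or a VEGF receptor kinase. SDC2, a heparan sulfate proteoglycan, was at 108 ± 3.51 CPM in WT, 189 ± 4.91 CPM in 1-1 KO and 102 ± 3.63 CPM in 1-2 KO (SD, n = 3), and rose in 1-1 KO (log2 0.80, edgeR adjusted p = 4.19e-10). Its 50 neighbours had a median of 0.36 in 1-1 KO compared to WT. The semaphorin receptors that pair with neuropilins differed by gene. PLXND1 fell by 0.62 on the log2 scale in 1-1 KO (edgeR adjusted p = 1.78e-08) and PLXNA2 fell by 0.65 in 1-1 KO (edgeR adjusted p = 4.68e-07) and by 0.22 in 1-2 KO (edgeR adjusted p = 0.00707), whereas PLXNA1 rose by 0.35 in 1-1 KO (edgeR adjusted p = 1.09e-05) and by 0.80 in 1-2 KO (edgeR adjusted p = 2.86e-09). The neighbours of PLXNA1 had medians of 0.31 in 1-1 KO and 0.18 in 1-2 KO, so that its rise in 1-1 KO was close to that of its region. For PLXNA2 the medians were -0.21 and 0.11, and for PLXND1 the median in 1-1 KO was 0.31.

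Of the genes that carry the signal inside the cell after VEGF receptor activation, 23 of 24 were tested, with 7 higher and 9 lower in 1-1 KO and 9 higher and 6 lower in 1-2 KO compared to WT. The shares called were 69.6% and 65.2%, beside 63.4% and 54.4% of all tested genes, and the median log2 fold changes were 0.04 and 0.07, beside 0.01 and 0.02. PXN, a focal adhesion adaptor, was at 0.548 of WT in 1-1 KO (log2 -0.87, edgeR adjusted p = 1.74e-08) and 1.11-fold higher in 1-2 KO (log2 0.15, edgeR adjusted p = 0.0455). FYN, a kinase of the SRC family, rose in both, by 0.72 in 1-1 KO (edgeR adjusted p = 5.79e-07) and 0.59 in 1-2 KO (edgeR adjusted p = 5.68e-06). CDC42, a small GTPase of the cytoskeleton, fell in both, by 0.41 (edgeR adjusted p = 7.99e-07) and 0.71 (edgeR adjusted p = 3.56e-09). PRKCA, a protein kinase C, was higher in 1-1 KO (log2 0.11, edgeR adjusted p = 0.0285) and lower in 1-2 KO (log2 -0.40, edgeR adjusted p = 1.98e-06).

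Oxygen sensing genes and HIF partners were tested for 21 of 22, with 8 higher and 6 lower in 1-1 KO and 9 higher and 6 lower in 1-2 KO compared to WT, at medians of -0.01 and 0.07. The shares called were 66.7% and 71.4%, beside 63.4% and 54.4% of all tested genes. ARNT, the common partner of the HIF alpha subunits, was at 68.7 ± 1.55 CPM in WT, 39.8 ± 2.42 CPM in 1-1 KO and 57.7 ± 4.66 CPM in 1-2 KO (SD, n = 3). It fell by 0.79 on the log2 scale in 1-1 KO (edgeR adjusted p = 3.79e-08), where its 50 neighbours had a median of -0.59, and by 0.25 in 1-2 KO (edgeR adjusted p = 0.00198), where their median was -0.28. ARNT2, its paralog, known from neurons, had 4 to 6 counts per library in WT, 0 to 5 in 1-1 KO and 167 to 209 in 1-2 KO. Its level in 1-2 KO was 4.46 ± 0.430 CPM (SD, n = 3), a log2 fold change of 4.99 compared to WT (SE 0.28). ARNT2 passed the filter on low counts only through 1-2 KO, so that its call there is no independent support. It is among the 9 counted as higher. CUL2, the scaffold of the VHL ubiquitin ligase, fell by 0.84 in 1-1 KO (edgeR adjusted p = 8.15e-11) and by 0.51 in 1-2 KO (edgeR adjusted p = 1.81e-08). HIF1AN fell by 0.47 in 1-2 KO (edgeR adjusted p = 6.86e-08) and did not pass in 1-1 KO (log2 -0.06, edgeR adjusted p = 0.142).

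EGLN3, which encodes the prolyl hydroxylase PHD3 and is itself a HIF target, was picked out after its values were seen. It is listed with the oxygen sensing genes and is not among the genes induced by HIF that are counted below. It had 0 to 3 counts in the WT libraries, 11 to 19 in 1-1 KO and 55 to 72 in 1-2 KO, and the lines did not overlap. Relative to the TMM-scaled library totals, the ratio of summed counts was 43.9 in 1-2 KO compared to WT, with an exact 95% counting interval from 16.9 to 163. In 1-2 KO compared to 1-1 KO it was 4.18 (3.03 to 5.86).

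Of the genes induced by HIF in hypoxia, more were higher than lower in 1-1 KO and more were lower than higher in 1-2 KO. All 36 were tested, and in 1-1 KO compared to WT 17 were higher and 8 lower (47.2% and 22.2%, beside 32.5% and 30.9% of all tested genes), at a median of 0.09, beside 0.01. In 1-2 KO compared to WT 8 were higher and 16 lower (22.2% and 44.4%, beside 28.2% and 26.2%), at a median of -0.15, beside 0.02. In 1-2 KO compared to 1-1 KO 6 were higher and 24 lower (16.7% and 66.7%, beside 33.1% and 32.2%), at a median of -0.28, beside 0.01 for all tested genes. NDRG1, a stress response gene, was at 35.0 ± 0.520 CPM in WT, 109 ± 2.07 CPM in 1-1 KO and 26.6 ± 1.09 CPM in 1-2 KO (SD, n = 3), a rise of 1.64 (edgeR adjusted p = 5.53e-13) and a fall of 0.39 on the log2 scale (log2 -0.39, edgeR adjusted p = 2.06e-06). LOX, which cross-links collagen, rose by 1.16 in 1-1 KO (edgeR adjusted p = 1.78e-10) and fell by 0.90 in 1-2 KO (edgeR adjusted p = 7.32e-09). CA12, a carbonic anhydrase, was lower in 1-2 KO (log2 -0.91, edgeR adjusted p = 2.68e-09) and did not pass in 1-1 KO (log2 -0.05, edgeR adjusted p = 0.394). STC2, a secreted glycoprotein, rose in both, by 0.69 (edgeR adjusted p = 1.85e-08) and 1.81 (edgeR adjusted p = 1.08e-12).

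**Figure D5:**
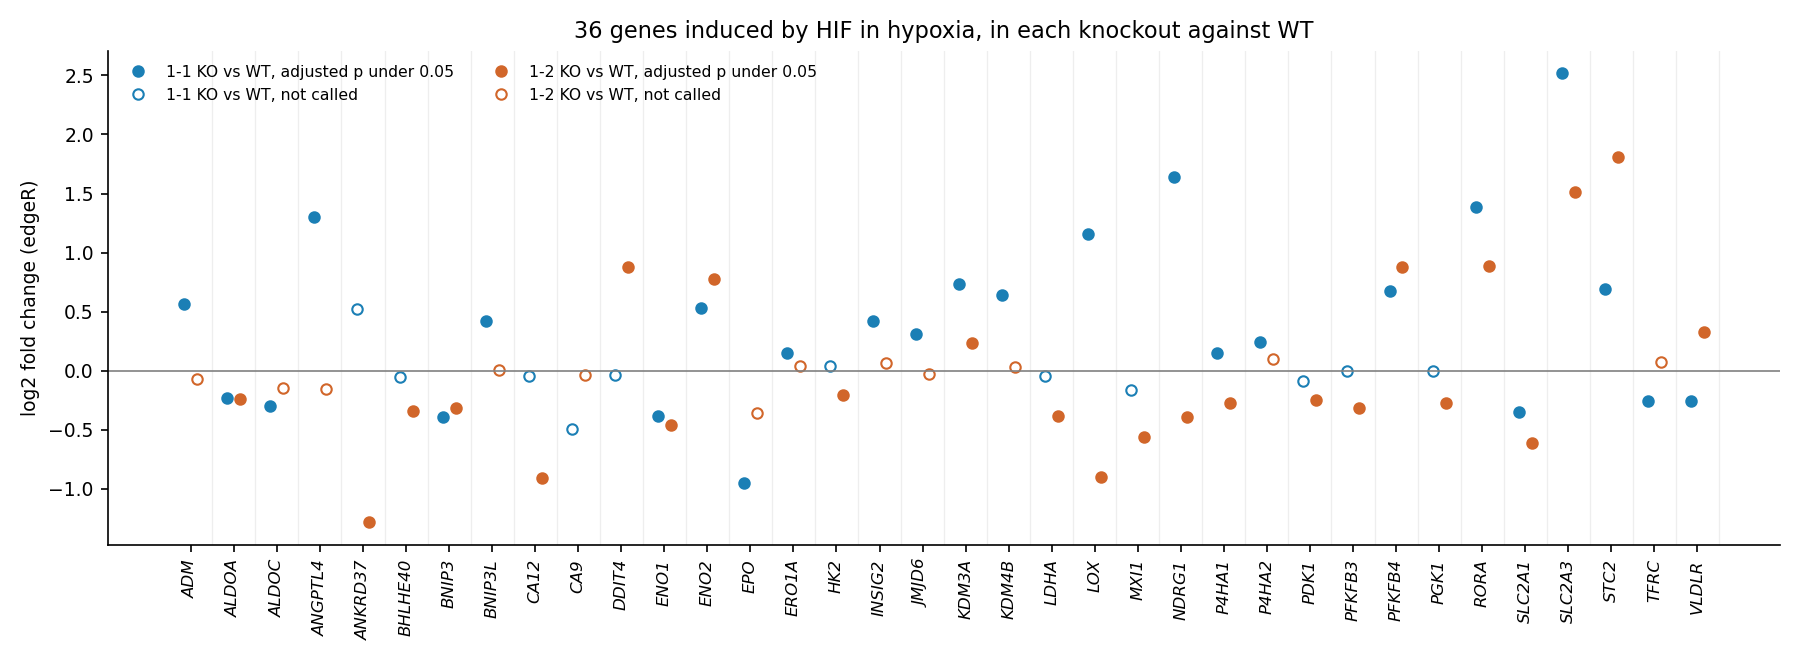
Log2 fold change (vertical axis, edgeR) of 36 genes induced by HIF in hypoxia (horizontal axis, in alphabetical order) in 1-1 KO (blue) and 1-2 KO (orange) compared to WT, with filled points for an adjusted p under 0.05. Filled blue points lie above 0 for 17 genes and below for 8, and filled orange points above 0 for 8 and below for 16.

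Secreted factors outside the VEGF family were listed as promoters and inhibitors of angiogenesis. Of 25 promoters, 21 were tested, with 7 higher and 7 lower in 1-1 KO (median -0.05) and 12 higher and 6 lower in 1-2 KO (median 0.17) compared to WT. The shares called were 66.7% and 85.7%, beside 63.4% and 54.4% of all tested genes, whose medians were 0.01 and 0.02. CXCL8, the chemokine interleukin-8, was at 131 ± 9.41 CPM in WT, 60.0 ± 1.56 CPM in 1-1 KO and 196 ± 13.1 CPM in 1-2 KO (SD, n = 3), and was called lower in 1-1 KO (log2 -1.12, edgeR adjusted p = 6.70e-10) and higher in 1-2 KO (log2 0.58, edgeR adjusted p = 5.71e-07). SPP1, osteopontin, rose by 0.24 in 1-1 KO (edgeR adjusted p = 0.000372) and by 1.75 in 1-2 KO (edgeR adjusted p = 1.00e-12). PDGFD, a platelet-derived growth factor, had 9 to 17 counts per library in WT and 393 to 469 in 1-2 KO, a rise of 4.91 (SE 0.18, edgeR adjusted p = 3.26e-11), and did not pass in 1-1 KO (log2 -0.69, edgeR adjusted p = 0.0888). HDGF fell by 0.87 in 1-1 KO (edgeR adjusted p = 9.15e-11) and by 0.29 in 1-2 KO (edgeR adjusted p = 1.03e-05), with neighbours on chromosome 1 at medians of -0.62 and -0.06.

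Of 25 inhibitors, 21 were tested, with 9 higher and 10 lower in 1-1 KO (median -0.21) and 12 higher and 6 lower in 1-2 KO (median 0.49) compared to WT. The shares called were 90.5% and 85.7%, beside the same 63.4% and 54.4%. PLG had 36 to 45 counts per library in WT, 0 to 1 in 1-1 KO and 4 to 6 in 1-2 KO. It passed the filter on low counts only through WT and is among the tested genes, so that a call of it is no independent support. TIMP1, a metalloproteinase inhibitor, was at 28.7 ± 1.91 CPM in WT, 1.02 ± 0.144 CPM in 1-1 KO and 9.83 ± 0.877 CPM in 1-2 KO (SD, n = 3), a fall of 28.3-fold in 1-1 KO (log2 -4.82, edgeR adjusted p = 2.92e-13) and of 2.93-fold in 1-2 KO (log2 -1.55, edgeR adjusted p = 1.34e-09). TIMP3, which also blocks binding of VEGF-A to KDR, was 3.47-fold lower in 1-1 KO (log2 -1.80, edgeR adjusted p = 5.17e-13) and did not pass in 1-2 KO (log2 -0.08, edgeR adjusted p = 0.0984). KNG1, the kininogen from which an antiangiogenic fragment is cut, rose by 1.45 in 1-1 KO (edgeR adjusted p = 1.02e-11) and by 1.20 in 1-2 KO (edgeR adjusted p = 8.28e-11).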

How the data were processed

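The deposited values are read counts per gene for 9 libraries. According to the study's methods and the labels, the authors made stranded mRNA libraries, sequenced paired reads of 50 nt, aligned them to GRCh38 (annotation version 104) with STAR and counted them with featureCounts, without normalization. Whether the counting used the strand is not given in the sources used here. Exons shared with antisense genes touched VEGFA, NRP1, NRP2 and HIF1A, and those genes had 7 counts or fewer per library. Positions came from GENCODE 44, and promoter windows from RefSeq (GRCh38.p14).

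Counts were tested in R 4.3.3 with edgeR 4.0.16 after filterByExpr (minimum count 10, minimum total 15) and TMM normalization, in 1 quasi-likelihood fit of all 9 libraries with a term per line. The alternatives were DESeq2 1.42.0, DESeq2's size factors in edgeR, library size alone, no filter, at least 10 counts in every library, only the 2 groups compared, a replicate block, the neighbours' median subtracted (25 tested genes on each side), an adjusted p under 0.01, and leaving out each library. The length of all annotated exons was added after seeing the data. The steps were tested on simulated counts.

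The members and lists were chosen with earlier results of these data known. Named genes are the 10 members, from each list the 2 with the smallest adjusted p per knockout compared to WT at a mean of at least 1 CPM, the 2 profiles most like each called member at that level, the highest gene of each marker list, and the VTRNA1 genes. EGLN3, ESAM, TIE1, TEK, CDH5, COL1A2, PDGFRB, ACTA2, PTPRC and PLG were named after their values were seen, as was the choice of printed windows.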

Additional observations from a re-analysis of the deposited data

Results flagged for a closer look

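Of the members and the genes named from the lists for their adjusted p, 7 were called in opposite directions in the knockouts compared to WT and were also called in the comparison of 1-2 KO with 1-1 KO. The log2 fold change of 1-2 KO over 1-1 KO was -1.52 for PGF, -0.90 for EPAS1, -0.51 for PRKCA, -2.03 for NDRG1 and -2.06 for LOX, all lower in 1-2 KO. It was 1.01 for PXN and 1.71 for CXCL8, both higher in 1-2 KO. A difference between the knockouts largely follows from choosing genes with opposite calls, so that these values are a description. ANG, named above for its profile, had the same pattern (-1.93). Calls in opposite directions were made for 11.7% of the tested genes. The count of 7 cannot be set against that share, since the genes from the lists were picked for a small adjusted p. At an adjusted p under 0.01, PXN in 1-2 KO and PRKCA in 1-1 KO compared to WT did not pass.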

How the results depend on the processing

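Of 427 recomputed values and counts of the members, 414 kept their direction and their side of the threshold or stayed within 1.5 times. With library size alone, NRP1 in 1-1 KO compared to WT was at 0.0172 (log2) and VEGFA in 1-2 KO compared to WT at 0.0257, neither called. On that scaling, 2 genes of the VEGFD and plexin list were higher in 1-2 KO. With at least 10 counts in every library, HIF1A passed between the knockouts (-0.10), 7 promoters of angiogenesis were higher in 1-2 KO than in 1-1 KO, and FLT1 had no value. With only the 2 groups compared, HIF1A passed as well (-0.10). With the neighbours' median subtracted, NRP1 in 1-1 KO was at 0.12 and VEGFA at 0.24 in 1-2 KO compared to WT and 0.10 compared to 1-1 KO, and 4 genes of VEGF receptor signalling and 4 promoters of angiogenesis were higher in 1-1 KO. At an adjusted p under 0.01, 5 oxygen sensing genes were higher in each knockout compared to WT, and 1 gene of the VEGFD and plexin list was lower in 1-2 KO. The stricter threshold lowers counts by construction, and for the other changes the cause was not tested. Leaving out each library, VEGFA in 1-2 KO compared to WT ranged from -0.0779 to 0.0207, HIF1A between the knockouts from -0.101 to -0.0569, VEGFB between the knockouts from 0.26 to 0.40, and FLT1 in 1-1 KO compared to WT from -1.96 (without replicate 3 of 1-1 KO) to 3.15, a fit to at most 3 counts per library. Of the VEGFD and plexin list, 1 to 2 genes were higher and 1 to 3 lower in 1-2 KO compared to WT. Members higher in 1-1 KO stayed at 5 and in 1-2 KO at 3 compared to WT. The deviations of same-numbered libraries had correlations from -0.353 to 0.182 (2 of 9 above 0.1), beside -0.339 to 0.459 for other pairs. With 3 libraries per line, these values cannot decide whether the numbers pair samples, and the labels name no pairing. With a replicate block, 5 members were higher and 1 lower in 1-1 KO and 3 higher and 4 lower in 1-2 KO compared to WT. Depth limited FLT1, VEGFC and KDR, whose counts lay near 0.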
